A study of Mus musculus with 22 samples.

Results

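Stbd1 and 8 other genes of glycogen metabolism were followed in spinal cords of mice carrying the E196K change in Yars, the gene of tyrosyl-tRNA synthetase. The 9 genes are Stbd1, Gys1, Gbe1, Gyg, Pygb, Pygm, Ppp1r3c, Epm2a and Nhlrc1. Stbd1 was chosen because an earlier look at these data found it higher in homozygous cords than in heterozygous and wild type cords. The other 8 were chosen by their known roles in making, branching, breaking down or clearing glycogen. Ppp1r3c was also known from that earlier look for the smallest p-value of all genes between heterozygous and wild type cords. Each of the 9 symbols matched 1 of 38924 gene IDs, and all 9 were among the 16974 genes expressed highly enough to be tested. The libraries came from 10 cords of genotype E196K/E196K (HOM), 6 of genotype E196K/+ (HET) and 6 wild type cords (WT). All mice were on a B6N;B6J background and 7 months old, and whole spinal cord was sequenced. The labels do not say whether every library is a separate animal, so a p-value here compares a difference with the variation among libraries only, which may be partly technical.

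Glycogen is the storage polymer of glucose. Its chains start on glycogenin (Gyg), are lengthened by glycogen synthase (Gys1) and are branched by the branching enzyme (Gbe1). Phosphorylases cut glucose back off the chains, and the central nervous system uses the brain isoform (Pygb) and the muscle isoform (Pygm), with most of its glycogen held in astrocytes. Stbd1 is a membrane-anchored protein with a starch-binding domain that tethers glycogen to membranes and links it to the autophagy protein Gabarapl1. Ppp1r3c brings protein phosphatase 1 to glycogen, while laforin (Epm2a), a glycogen phosphatase, and malin (Nhlrc1), a ubiquitin ligase, keep glycogen soluble. Loss of either laforin or malin causes Lafora disease. Reduced activity of the branching enzyme causes adult polyglucosan body disease, in which the human spinal cord and nerves are affected.

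Libraries totalled 26430331 to 38343500 expected counts in HOM, 24448477 to 37436303 in HET and 29221001 to 42805931 in WT. Between HOM and WT 16 genes passed an adjusted p below 0.05, between HET and WT none did (578 had an unadjusted p below 0.05, and DESeq2 called 0 as well), and between HOM and HET 18 did. Yars itself had a median of 122 CPM (counts scaled to the size of the library) in HOM, 113 CPM in HET and 114 CPM in WT, and the E196K change cannot be read from gene counts. The sample titles carry the prefixes 39992, 40411 and 40412, whose meaning the labels do not give. They hold 5, 3 and 2 HOM, 0, 1 and 5 HET and 1, 2 and 3 WT libraries in that order, so prefix and genotype are partly bound together. One library, HOM 3, stood apart. The Schwann cell gene Prx was at 191 TPM (a level scaled to transcript length and library size) in HOM 3 and at most 0.49 TPM in any other library, and the skeletal muscle list summed to 28 TPM there against at most 8.97 TPM in other HOM, 5.39 in HET and 10.7 in WT libraries. Markers of neurons, motor neurons, oligodendrocytes, astrocytes and microglia and the Hox genes of spinal cord position were detected in all 22 libraries. Adipose markers summed to at most 1.83 TPM, in HOM 3.

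Stbd1 lies on chromosome 5 from 92603041 to 92606579 on the plus strand (GRCm38, GENCODE M21). The 240 bases before its start are shown because Stbd1 is the gene that stood apart by genotype. They are credited to the RefSeq promoter table of GRCm38.p6, cover chr5:92602801-92603040 on the plus strand, and have 70.8% G and C. Capitals mark the letters GGGCGG of a GC box.
Stbd1: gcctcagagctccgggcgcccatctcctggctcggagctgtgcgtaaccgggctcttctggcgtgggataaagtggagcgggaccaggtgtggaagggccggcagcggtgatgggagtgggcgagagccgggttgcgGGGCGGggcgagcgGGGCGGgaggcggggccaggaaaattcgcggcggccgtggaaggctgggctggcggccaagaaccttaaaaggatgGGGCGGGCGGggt
The GC box letters occur at 4 positions in this window, 2 of which overlap at its end. Over the 250 bases before the start in the RefSeq table, 32.7% of 32851 promoters held GGGCGG on either strand, and the 95th percentile was 3 matches. Among the other 8 genes it was at 2 positions in the window of Gys1 and at 1 each in those of Gyg, Epm2a and Nhlrc1. The Stbd1 window of that length is rich in G and C, at 71.2% against a median of 52.4% over all promoters (percentile 92.2), and the number of matches was not compared with promoters of like composition. The letters TGATGNAA, bound by C/EBP and ATF factors as a pair, were in 3.45% of all promoters, the cyclic AMP element TGACGTCA was in 1.55% and TATAAA in 12.4%. None of these 3 motifs was found on either strand in the window of Stbd1 or of any of the other 8 genes. Their absence says only that these letters are not in these 250 bases.

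Stbd1 was higher in every HOM library than in every HET or WT library. Its lowest, median and highest values were 2.99, 3.95 and 6.32 CPM in HOM, 1.22, 1.47 and 1.63 CPM in HET and 1.06, 1.23 and 1.46 CPM in WT. The HOM range did not overlap the others, and the HET range overlapped the WT range. These values rest on 93 to 208 counts per library in HOM, 35 to 55 in HET and 34 to 48 in WT, so sampling error is a large part of the spread in HET and WT. On average HOM had 4.22 CPM (SD 1.06, n = 10) and WT 1.25 CPM (SD 0.167, n = 6), a 3.37-fold difference (log2 fold change 1.75, SE 0.148). HOM had 2.89-fold the HET level (log2 fold change 1.53, SE 0.146). Within title prefixes 40411 and 40412, which hold both genotypes, HOM had 2.33 and 2.32-fold the HET level. Prefix 39992, with 5 of the 10 HOM libraries, held no HET library. Because Stbd1 was chosen for these differences, they are given as a description without a test. In the fit over all genes 0.0943% passed between HOM and WT and 0.106% between HOM and HET. The share of all genes whose ranges do not overlap was not counted.

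**Figure D1:**
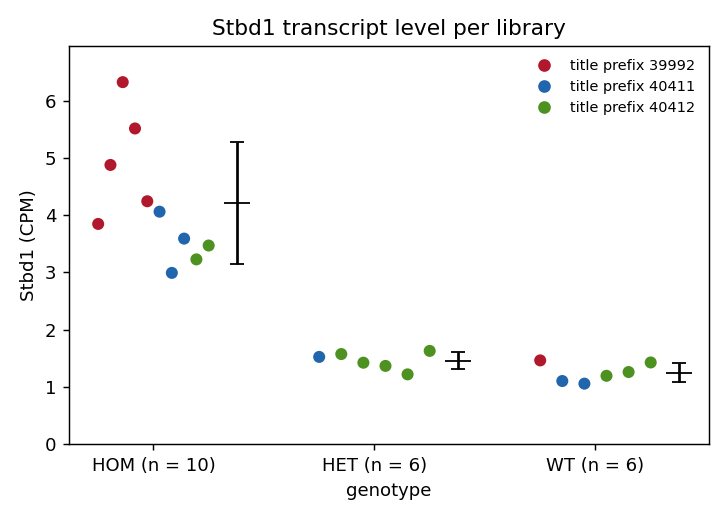
Stbd1 in each library, in CPM on a linear axis, for HOM (n = 10), HET (n = 6) and WT (n = 6). Points are libraries coloured by title prefix and the black mark beside each group is the mean with its SD. All 10 HOM points lie at or above 2.99 CPM and no HET or WT point is above 1.63 CPM.

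A single E196K allele went with little of this difference. HET averaged 1.46 CPM (SD 0.151, n = 6) and WT 1.25 CPM (SD 0.167, n = 6), and 3 of 6 HET libraries lay above all WT libraries. This was a log2 fold change of 0.22 (SE 0.168, adjusted p = 1), with a 95% interval of -0.107 to 0.551. Over WT, HET was higher by 0.205 CPM and HOM by 2.96 CPM. The midpoint between the HOM and WT means was 2.73 CPM, and the highest HET library, at 1.63 CPM, was below it. The dose of the allele and the level of Stbd1 were thus not on a straight line in these means. Stbd1 was chosen for its difference between HOM and the other genotypes. This is therefore a description of the values used for the choice and no test of dose.

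Every HOM library exceeded every HET and WT library, so HOM had to be separate within each title prefix too. The values by prefix describe only the size of the difference. In prefix 39992 Stbd1 was at 3.85 to 6.32 CPM in 5 HOM libraries and at 1.46 CPM in 1 WT library. In prefix 40411 it was at 2.99 to 4.06 CPM in 3 HOM, 1.52 CPM in 1 HET and 1.06 to 1.104 CPM in 2 WT libraries. In prefix 40412 it was at 3.23 to 3.47 CPM in 2 HOM, 1.22 to 1.63 CPM in 5 HET and 1.195 to 1.43 CPM in 3 WT libraries. The differences between HOM and WT means were 1.67, 1.62 and 1.31 on the log2 scale in the 3 prefixes. Those between HOM and HET means were 1.16 and 1.17 in prefixes 40411 and 40412, below the 1.53 of the fit over all libraries. HOM 3, the library with peripheral nerve and muscle transcripts, had the highest Stbd1, and the next HOM library had 5.51 CPM. Ckm, the creatine kinase of muscle, was at 3.71 TPM in HOM 3 and at most 0.21 TPM in the other libraries. Without HOM 3 the log2 fold change of HOM over WT was 1.67. Stbd1 is strongly expressed in muscle, and the part of that RNA in the HOM 3 value was not tested. In whole tissue, more or fewer cells of a type and more or less RNA per cell cannot be told apart for any gene here.

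Levels of different genes were compared as deposited TPM, which divide by transcript length. Pygb was the most abundant of the 9, at 209.8 TPM in HOM, 212 in HET and 208 in WT (SD 12.7, 15.0 and 17.8). Pygm followed at 108, 102 and 105 TPM in HOM, HET and WT (SD 11.0, 11.6 and 9.27). In WT the order then ran through Gyg (38.1 TPM), Ppp1r3c (37.6), Epm2a (19.9), Gys1 (16.5), Gbe1 (10.8) and Nhlrc1 (8.69) down to Stbd1 (1.22 TPM). The phosphorylases thus headed the order and the glycogen tether ended it. In WT only the ranges of Gyg and Ppp1r3c overlapped among neighbours in this order, and in HET none did. In HOM the ranges of Ppp1r3c and Gyg, of Epm2a and Gys1, and of Gbe1 and Nhlrc1 overlapped. Stbd1 was last in all 3 genotypes, with 3.00 to 6.61 TPM in HOM, 1.25 to 1.68 TPM in HET and 1.08 to 1.43 TPM in WT.

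**Figure D2:**
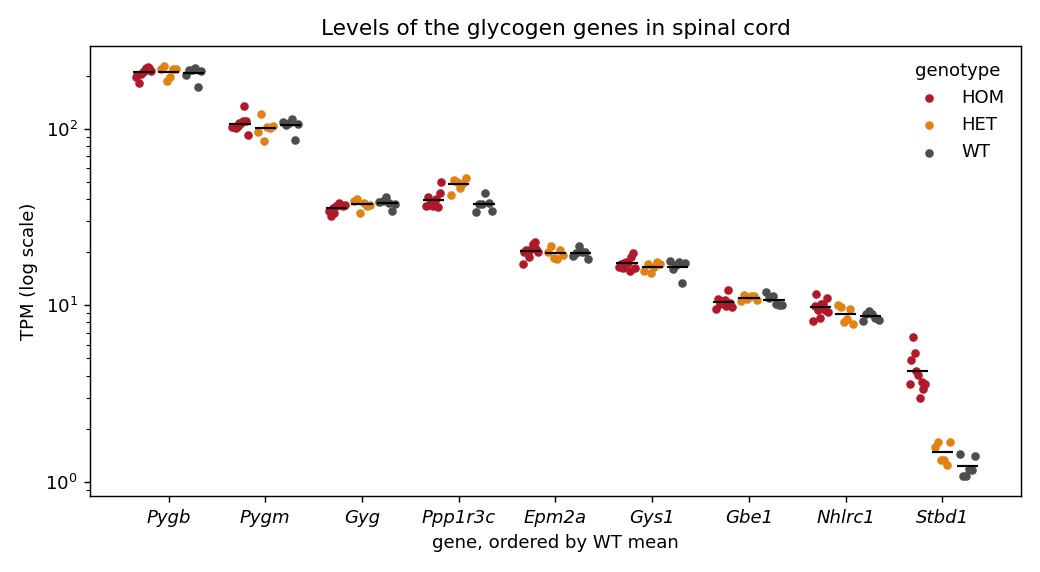
Deposited TPM of the 9 genes on a log axis for HOM (n = 10), HET (n = 6) and WT (n = 6), with HOM left of HET and WT within each gene. Points are libraries and black lines are group means. Pygb is near 210 TPM in each genotype. For Stbd1 the HOM points are separate from both other genotypes, the difference for which it was chosen. The share of all genes so separated was not counted.

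Ratios within a library restate these levels without any scaling between libraries. Those of Stbd1 rest on the values for which it was chosen, so they are a description and no further support. The level of Gys1, used below as a divisor, is less certain than those of the other genes. The ratio of Stbd1 to Gys1 TPM had a lowest, median and highest value of 0.170, 0.225 and 0.404 in HOM, 0.0707, 0.0921 and 0.0997 in HET and 0.0639, 0.0740 and 0.0864 in WT. The summed phosphorylases Pygb and Pygm stood at 16.9 to 21.2 times Gys1 in HOM, 17.9 to 20.2 times in HET and 17.7 to 20.1 times in WT. The Stbd1 ranges were separate for HOM, while the phosphorylase ranges overlapped in all 3 genotypes. Stbd1 made up 0.637 to 1.56% of the summed TPM of the 9 genes in HOM, 0.268 to 0.357% in HET and 0.233 to 0.321% in WT. Pygb and Pygm together made up 67.4 to 72.0% in HOM, 66.6 to 69.5% in HET and 67.5 to 71.5% in WT.

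None of the 8 genes other than Stbd1 passed an adjusted p below 0.05 in any of the 3 comparisons. Over all tested genes 0.0943% passed between HOM and WT (0.0884% higher and 0.00589% lower), 0% between HET and WT and 0.106% between HOM and HET (0.0766% higher and 0.0295% lower). Between HOM and WT 3 of the 8 were higher and their median log2 fold change was -0.01, beside 0.01 for all tested genes. Between HET and WT 2 of the 8 were higher with a median of -0.01, and between HOM and HET 4 of the 8 were higher with a median of 0.00, beside 0.00 and 0.01 for all tested genes. The comparisons share their libraries, so their values for a gene are not independent of each other.

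Of the genes that build glycogen, Gyg, the primer of new chains, had the smallest p-value between HOM and WT among these 8. The gene lies on chromosome 3 from 20122084 to 20155317 on the minus strand (GRCm38, as for all positions here). Its lowest, median and highest values were 26.7, 30.1 and 31.3 CPM in HOM, 29.8, 31.1 and 33.01 CPM in HET and 30.8, 32.6 and 33.3 CPM in WT. Of the HOM libraries 8 of 10 lay below every WT library, and the HET range overlapped both, with 4 of 10 HOM libraries below all HET libraries. Between HOM and WT the log2 fold change was -0.12 (SE 0.0342, 95% interval -0.187 to -0.053), with an unadjusted p of 0.00175 and an adjusted p of 0.503. The means differed by -0.18, -0.10 and -0.08 on the log2 scale within prefixes 39992, 40411 and 40412. Gyg thus sat slightly lower in HOM in each prefix, by a margin that did not pass the adjustment over all genes.

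Gys1, the synthase, had 22.5, 27.3 and 31.8 CPM in HOM, 25.9, 26.8 and 29.3 CPM in HET and 23.3, 27.0 and 30.3 CPM in WT as its lowest, median and highest values. The 3 ranges overlapped, and the log2 fold change of HOM over WT was 0.03 (95% interval -0.079 to 0.149, adjusted p = 0.91). On chromosome 7 from 45434844 to 45456619, plus strand, Gys1 overlaps Ruvbl2 on the other strand, and its expected count was not whole in any of the 22 libraries, within 0.005, where every other of the 9 genes had whole counts in all 22. Reads of Gys1 were thus partly shared out with other genes or positions in the authors' counting, and its level is less certain than those of the others. The estimated mean length of its transcripts also varied, with means of 3000 bases in HOM, 3102 in HET and 2999 in WT and a range over all libraries of 2737 to 3307.

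Gbe1, which adds branches and lies on chromosome 16 from 70313949 to 70569716 on the plus strand, had 15.0, 16.3 and 18.4 CPM in HOM, 16.4, 17.1 and 18.4 CPM in HET and 16.2, 17.4 and 19.2 CPM in WT. The ranges overlapped, although 4 of 10 HOM libraries lay below all WT and 6 of 10 below all HET libraries. Its log2 fold change was -0.08 between HOM and WT (SE 0.0466, adjusted p = 0.815) and -0.07 between HOM and HET (SE 0.0467, adjusted p = 0.664). No prefix held a WT and a HOM mean in the other order, with differences of -0.23, -0.05 and -0.11 in prefixes 39992, 40411 and 40412.

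The phosphorylases, the enzymes that release glucose from glycogen, had overlapping ranges in the 3 genotypes. Pygb lies on chromosome 2 from 150786735 to 150831758 and Pygm on chromosome 19 from 6384399 to 6398459, both on the plus strand. Pygb had a lowest, median and highest value of 360.4, 440.2 and 454 CPM in HOM, 418, 439.9 and 444 CPM in HET and 395, 443 and 460.2 CPM in WT. The lowest value was that of HOM 3, and every other HOM library had at least 422 CPM. The log2 fold change of HOM over WT was -0.02 (95% interval -0.093 to 0.060, adjusted p = 0.94), and 0.01 without HOM 3. At 10824 to 19561 counts per library Pygb is the most deeply counted of the 9 genes, and its interval leaves room for only small differences.

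Pygm had 132, 155 and 188 CPM in HOM, 131, 147 and 166 CPM in HET and 134, 156 and 166.0 CPM in WT. Its log2 fold change was -0.01 between HOM and WT (95% interval -0.125 to 0.110, adjusted p = 0.986) and -0.08 between HET and WT (95% interval -0.208 to 0.055, adjusted p = 1). The balance of the isoforms, as the ratio of Pygb to Pygm TPM, was 1.67 to 2.31 in HOM, 1.87 to 2.28 in HET and 1.85 to 2.03 in WT. HOM libraries thus lay on both sides of the WT range.

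Ppp1r3c, the subunit that brings protein phosphatase 1 to glycogen, lies on chromosome 19 from 36731731 to 36736653 on the minus strand. The 201 bases before its start, chr19:36736654-36736854 on the minus strand in GRCm38.p6 of RefSeq, are shown because HET was its highest group. Capitals mark CACGTG, the E-box letters, and ATTGG, the reverse complement of the CCAAT box, and the window has 66.2% G and C.
Ppp1r3c: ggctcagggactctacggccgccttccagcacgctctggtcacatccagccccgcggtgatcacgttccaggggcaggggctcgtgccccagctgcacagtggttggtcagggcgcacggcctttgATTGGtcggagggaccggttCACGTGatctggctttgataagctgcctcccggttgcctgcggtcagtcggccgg
CACGTG was in the 250 base window of Ppp1r3c and in no other of the 9, and in 6.02% of all 32851 promoters. CCAAT was in 33.8% of all promoters, and among the 9 genes in the windows of Ppp1r3c and Gys1. The data hold no measure of binding at these letters.

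Ppp1r3c was at 49.95, 56.6 and 69.4 CPM in HOM, 58.7, 68.4 and 76.9 CPM in HET and 49.4, 53.8 and 62.3 CPM in WT as lowest, median and highest values. HET libraries were the highest group, with 5 of 6 above all WT libraries, and 8 of 10 HOM libraries lay below all HET libraries. HOM and WT overlapped, with a log2 fold change of 0.04 (SE 0.0653, adjusted p = 0.9). The log2 fold change of HET over WT was 0.33 (SE 0.0727, 95% interval 0.189 to 0.474), with an unadjusted p of 0.000135 and an adjusted p of 1. That p-value was the smallest of all genes in this comparison and Ppp1r3c was known for it beforehand, so it carries no weight of its own. The comparison of HOM with HET uses the same 6 HET libraries, so its p-values for Ppp1r3c are not free of that choice either. Between HOM and HET the log2 fold change was -0.29 (SE 0.0645, 95% interval -0.415 to -0.162, adjusted p = 0.0717).

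**Figure D3:**
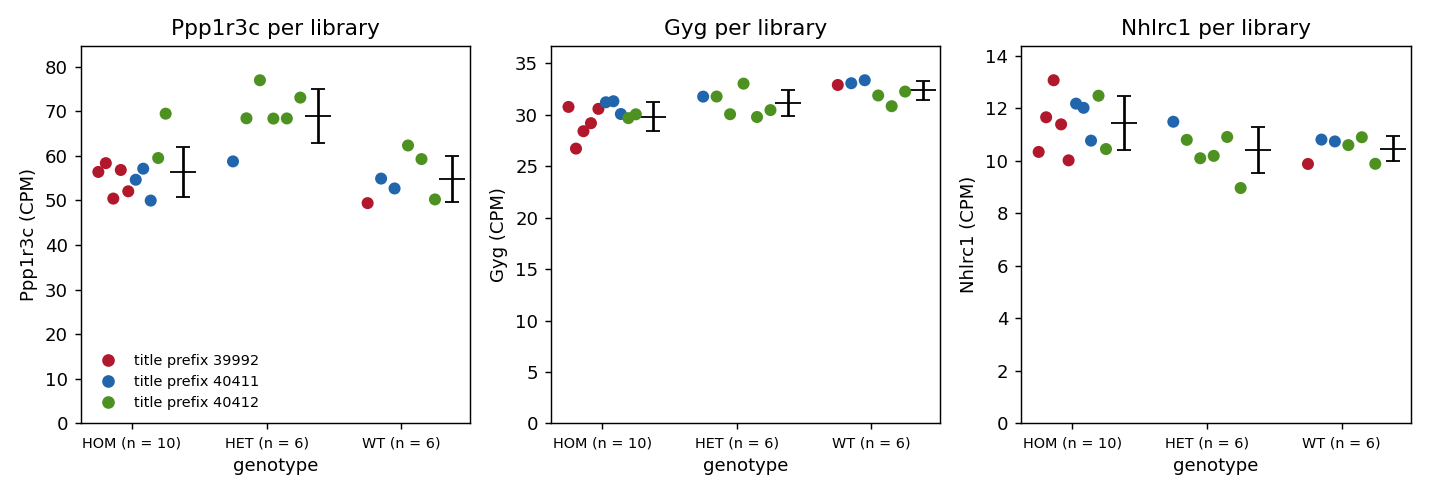
Ppp1r3c, Gyg and Nhlrc1 in each library, in CPM on linear axes, for HOM (n = 10), HET (n = 6) and WT (n = 6), coloured by title prefix, with the mean and SD as the black mark beside each group. For Ppp1r3c 5 of 6 HET points lie above all WT points, for Gyg 8 of 10 HOM points lie below all WT points and for Nhlrc1 6 of 10 HOM points lie above all WT points.

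The title prefix moved with the level of Ppp1r3c. In prefix 40412, which holds 5 of the 6 HET libraries, it was at 59.5 to 69.4 CPM in HOM, 68.3 to 76.9 CPM in HET and 50.2 to 62.3 CPM in WT. In prefix 40411 it was at 49.95 to 57.1 CPM in HOM, 58.7 CPM in 1 HET library and 52.7 to 54.9 CPM in WT. HET means exceeded WT means by 0.13 and 0.31 on the log2 scale in prefixes 40411 and 40412, and HOM minus HET means were -0.13 and -0.14 there. With the prefix as a covariate the log2 fold change was 0.26 between HET and WT (adjusted p = 1) and -0.15 between HOM and HET (adjusted p = 1). Without HOM 10, the highest HOM library, the difference between HOM and HET was -0.33 (adjusted p = 0.00868). Without HET 1, the lowest HET library, it was also -0.33 (adjusted p = 0.0357). Each of these libraries lay nearest to the other group, so leaving it out widens the difference. Over the 22 libraries left out in turn the adjusted p ran from 0.00868 to 0.259, and it was 0.259 without HET 3. With prefixes 40411 and 40412 only, an alternative chosen after seeing the data, the difference was -0.25 (adjusted p = 0.438). With DESeq2 the difference was -0.29 (adjusted p = 0.00903). Markers of astrocytes, the cells that hold most glycogen, summed to 1420, 1840 and 2230 TPM in HOM, 1880, 2150 and 2360 TPM in HET and 1750, 2060 and 2220 TPM in WT as lowest, median and highest values. Gfap makes up much of these sums, with medians of 963, 1246 and 1153 TPM in HOM, HET and WT. Its lowest value, 517 TPM, was that of HOM 3. Of the 6 astrocyte genes 2 were higher between HOM and HET (median log2 fold change -0.05) and 3 between HET and WT (median 0.01). None of the 6 astrocyte genes passed the test in any comparison, and their part in the Ppp1r3c values was not tested.

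The Lafora disease genes overlapped between genotypes. Nhlrc1 lies on chromosome 13 from 47012557 to 47014850 on the minus strand, and Epm2a on chromosome 10 from 11343404 to 11459644 on the plus strand, where a ribosomal protein pseudogene overlaps it on the other strand. Nhlrc1, the ubiquitin ligase malin, had 10.0, 11.5 and 13.1 CPM in HOM, 8.97, 10.5 and 11.5 CPM in HET and 9.88, 10.7 and 10.9 CPM in WT. Of the HOM libraries 6 of 10 lay above all WT and 5 of 10 above all HET libraries. The log2 fold change was 0.13 between HOM and WT (SE 0.0591, 95% interval 0.012 to 0.243, unadjusted p = 0.0411, adjusted p = 0.815) and 0.13 between HOM and HET (SE 0.0593, unadjusted p = 0.0324, adjusted p = 0.523). Within prefixes 39992, 40411 and 40412 the HOM mean exceeded the WT mean by 0.18, 0.11 and 0.13. At 220 to 470 counts per library it is, after Stbd1, the least counted of the 9.

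Epm2a, the phosphatase laforin, had 32.4, 35.4 and 38.4 CPM in HOM, 32.6, 34.3 and 34.9 CPM in HET and 32.9, 35.0 and 38.3 CPM in WT. The log2 fold change was -0.01 between HOM and WT (95% interval -0.088 to 0.071, adjusted p = 0.974) and 0.06 between HOM and HET (95% interval -0.022 to 0.137, adjusted p = 0.707), where 6 of 10 HOM libraries lay above all HET libraries. The ratio of laforin to malin TPM was 1.79, 2.12 and 2.43 in HOM, 2.01, 2.21 and 2.47 in HET and 2.21, 2.29 and 2.35 in WT, with overlapping ranges.

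**Figure D4:**
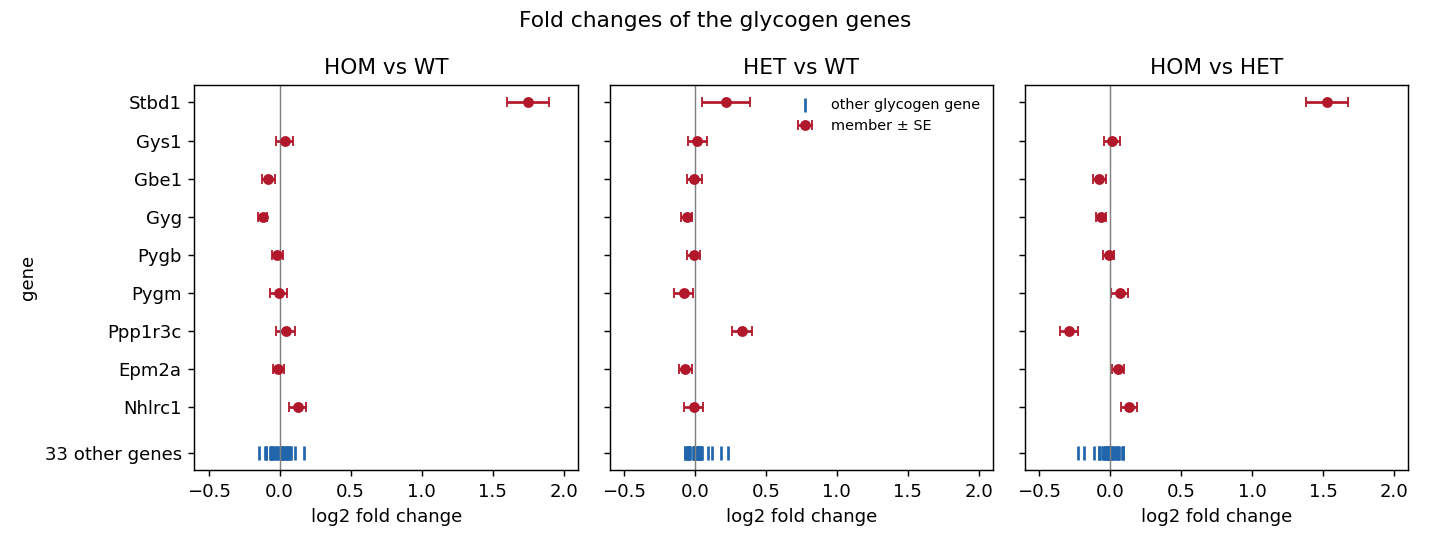
Log2 fold change with its SE for the 9 genes in the comparisons HOM over WT, HET over WT and HOM over HET, with the other 33 tested glycogen genes as ticks. Stbd1 is at 1.75 in HOM over WT and 1.53 in HOM over HET, and every other value shown lies between -0.29 and 0.33.

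Beyond these 9, a list of 35 other genes of glycogen handling was examined, of which 33 were tested. Gys2, the liver synthase, and Ppp1r3a, the muscle targeting subunit, were too low to test, with mean levels of 0.089 and 0.005 TPM in HOM. None of the 33 passed in any comparison. Between HOM and WT 18 of 33 were higher, with a median log2 fold change of 0.01 and a range of -0.14 to 0.17. Between HET and WT 17 of 33 were higher (median 0.02, range -0.07 to 0.24), and between HOM and HET 14 of 33 were higher (median -0.01, range -0.23 to 0.09). Over all tested genes 53.8% were higher between HOM and WT, 51.9% between HET and WT and 53.0% between HOM and HET. The number with an unadjusted p below 0.05 was 2, 0 and 5 of 33 in these 3 comparisons, beside 1004, 578 and 1493 of all 16974 tested genes.

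By role, 4 of the 7 other breakdown genes were higher between HOM and WT (median 0.02) and 0 of 7 between HET and WT (median -0.04). This group includes the liver phosphorylase Pygl and the subunits of phosphorylase kinase, which switches the phosphorylases on. Of the 8 tested subunits of protein phosphatase 1, 6 were higher between HOM and WT (median 0.02), 7 between HET and WT (median 0.07) and 1 between HOM and HET (median -0.02). Of the lysosome and autophagy genes, the acid glucosidase Gaa and the Stbd1 partners Gabarap and Gabarapl1, 1 of 3 was higher between HOM and WT, with values from -0.04 to 0.05. Between HOM and WT the other synthesis genes, Ugp2, Pgm1 and Pgm2, ranged from -0.10 to 0.06 and the glucose supply genes from -0.02 to 0.11. Of the 6 regulators, mostly kinase subunits, 1 was higher between HOM and WT (median -0.05, range -0.14 to 0.07). Of these regulators 3 were higher between HET and WT (median -0.01) and 1 between HOM and HET (median -0.05). With 0.0943% of all tested genes called in that comparison, no call in groups this small is near the background.

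The smallest unadjusted p-values of this list between HOM and WT belonged to Prkaa2, the catalytic alpha-2 subunit of AMP-activated kinase, and Gsk3a, a kinase that inhibits glycogen synthase. Prkaa2 was at 25.7, 29.4 and 30.4 CPM in HOM and 28.2, 31.99 and 34.1 CPM in WT (log2 fold change -0.14, SE 0.0485, unadjusted p = 0.00653, adjusted p = 0.643). Gsk3a was at 133, 137 and 145 CPM in HOM and 121, 131 and 139 CPM in WT (0.07, SE 0.0277, unadjusted p = 0.0121, adjusted p = 0.778). Both pairs of ranges overlapped. Between HET and WT the smallest belonged to the phosphatase 1 catalytic subunits Ppp1ca (0.05, SE 0.0290, adjusted p = 1) and Ppp1cc (0.09, SE 0.0586, adjusted p = 1). Between HOM and HET they belonged to Phka1, a regulatory subunit of phosphorylase kinase (0.09, SE 0.0306, adjusted p = 0.34), and G6pc3, a glucose-6-phosphatase (0.08, SE 0.0331, adjusted p = 0.448).

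Across the 10 HOM libraries Stbd1 varied from 2.99 to 6.32 CPM, and its pattern there was set beside that of every other tested gene. No r was taken over all 22 libraries, because the genotypes form separate clusters for Stbd1, and no prefix holds the 6 HOM libraries that a value within prefixes would need. The 5 genes with the highest Pearson r of log2 CPM were Cntnap5b (r = 0.94, Spearman rho = 0.93), Abca1 (0.94 and 0.96), Zup1 (0.92 and 0.88), Klf12 (0.92 and 0.90) and Chd9 (0.91 and 0.96). Their permutation p-values of r ran from 5e-05 to 0.00019, and each had an adjusted p of 0.202 over 16973 genes, so none passed. Within HOM the level of Stbd1 moved with the title prefix, with means of 4.96, 3.55 and 3.35 CPM in prefixes 39992, 40411 and 40412, and the permutations took no account of the prefix, whose part in these r values was not tested. Those of rho had adjusted p-values of 0.283 to 0.526. Without HOM 3 and HOM 4, the libraries farthest from the median of Stbd1, the r values were 0.84, 0.87, 0.84, 0.84 and 0.95. The 5 genes were picked for their r over libraries that include those kept, so these values are no further support. Of all genes compared, 268 had an absolute r above 0.8 within HOM. In the same order, r was 0.10, 0.35, 0.40, 0.25 and -0.19 in HET and 0.32, 0.23, 0.57, -0.45 and 0.74 in WT.

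Abca1, the cholesterol exporter, had 68.2 CPM in HOM 3 and 59.4 CPM in the next HOM library, and Klf12, a transcription factor, 14.3 and 11.7 CPM. HOM 3 thus had the highest values of these genes as well as of Stbd1, and the part of its peripheral nerve RNA in these r values was not tested. Among the other 8 glycogen genes r with Stbd1 within HOM ran from -0.72 for Pygb to 0.25 for Nhlrc1. For Pygb rho was -0.64, and r had a permutation p of 0.0106 and an adjusted p of 0.334. Pygb too differed by prefix within HOM, with means of 419.8, 451 and 439 CPM. Without HOM 3 and HOM 4 the r of Pygb was -0.72, while in the 6 HET libraries r was 0.16 and in the 6 WT libraries -0.06.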

How the data were processed

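RNA-seq of whole spinal cord was analysed in 22 libraries (10 HOM, 6 HET, 6 WT), grouped by the genotype in the labels. The authors deposited, per sample, expected counts, TPM, FPKM and transcript lengths per gene from RSEM 1.2.12 with Bowtie2 2.2.0, per the submitters' processing notes and the file headers. The sources used here name no genome build, annotation or strand setting, so reads of overlapping genes on opposite strands may not be told apart. The deposited FPKM values were not used. Between 14.4 and 16.2% of the deposited expected counts in a library had a fractional part, and all were rounded.

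Symbols came from the reference annotation (37607 of 38924 IDs matched). Counts were filtered with filterByExpr, scaled by TMM and tested in 1 edgeR 4.0.16 quasi-likelihood fit over all 3 genotypes (R 4.3.3), with Benjamini-Hochberg adjustment over 16974 genes and a threshold of 0.05. CPM are TMM-scaled counts over the tested genes, and levels of different genes were compared by the authors' TPM. Intervals are 1.96 SE either side of the log2 fold change. Likeness to Stbd1 used log2(CPM + 0.1) and 100000 permutations. All pairs of libraries differed by more than sampling noise. Alternatives were DESeq2 1.42.0, limma 3.58.1 on log2(TPM + 1) and log2(TPM + 0.1), other scalings and filters, the title prefix as a covariate and leaving out each library. The fit was tested on simulated data. The members, gene lists and tests were chosen with earlier results of these data known. All 9 members are named. Of the other glycogen genes, those that passed and the 2 with the smallest p per comparison are named, and for likeness the 5 genes of at least 1 mean CPM with the highest r.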

Additional observations from a re-analysis of the deposited data

Results flagged for a closer look

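Each of the 9 genes was examined in each genotype for a library far from the rest of its group, 27 groups of values in all, and 3 held one, where chance gives about 1 in 20. Pygb in HOM had its lowest value in HOM 3, at 360.4 CPM, with the next library at 422 CPM, a gap of 0.66 of the whole range. Pygm in HOM had its highest value in HOM 8, at 188 CPM, with the next at 161 CPM, a gap of 0.482 of the range. Ppp1r3c in HOM had its highest value in HOM 10, at 69.4 CPM, with the next at 59.5 CPM, a gap of 0.51 of the range. Both HOM 10 and the library next to it carry the title prefix 40412.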

How the results depend on the processing

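The log2 fold change of Stbd1 kept its direction under each alternative run. It ranged from 1.67 to 1.80 between HOM and WT, 0.179 to 0.268 between HET and WT and 1.45 to 1.58 between HOM and HET when each of the 22 libraries was left out in turn. On log2(TPM + 1) it was 1.21 (HOM over WT) and 1.06 (HOM over HET), because the pseudocount compresses low genes. The number of genes called between HOM and WT was 16, against 28 with DESeq2 (22 higher), 12 to 19 with 1 library left out and 8 with prefixes 40411 and 40412 only, an alternative chosen after seeing the data that leaves fewer libraries. Between HOM and HET it was 18 (13 higher), against 76 with DESeq2 (35 higher), 10 with the title prefix as a covariate, 11 with limma on log2(TPM + 1) and 10 to 39 with 1 library left out (39 without HOM 10, 11 without HOM 1 or HOM 4, 10 without HET 3). Between HET and WT it was 0 throughout. Of the 8 other members, 0 were called in each comparison, except 1, Ppp1r3c, between HOM and HET with DESeq2, without HET 1 and without HOM 10 (0 to 1 over the libraries left out). The cause was not tested. No paired analysis was possible because the replicate numbers were given in accession order and pair no samples.

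Of 744 recomputed log2 fold changes of these 8, 688 kept direction and side of the threshold, 3 newly passed and 53 changed sign. None of those 53 passed, and they were at most 0.0377 in size. With library totals, the prefix covariate, limma or the 2 prefixes alone these were, between HET and WT, Gbe1 (0.0151, 0.0266, 0.0346, 0.0377, 0.0222), Nhlrc1 (0.0132, 0.0012, 0.0301, 0.0327) and Pygb (0.013, 0.0333, 0.0334), between HOM and WT, Epm2a (0.0033, 0.0065, 0.0337, 0.0351, 0.0264), Pygb (0.0175, 0.0176, 0.0224) and Pygm (0.0057, 0.0297, 0.0299, 0.0375), and between HOM and HET, Pygb (0.0084, 0.0342). Leaving out 1 library gave, between HET and WT, Gbe1 -0.0283 to 0.0224, Gys1 -0.0177 to 0.054, Nhlrc1 -0.0375 to 0.0308 and Pygb -0.036 to 0.0032. Between HOM and WT it gave Epm2a -0.0292 to 0.0141, Gys1 -0.0017 to 0.07, Pygb -0.0442 to 0.0104 and Pygm -0.0451 to 0.0156, and between HOM and HET Gys1 -0.0104 to 0.0447 and Pygb -0.0193 to 0.0185. By TPM in place of CPM, 2 of 27 ratios of means moved by more than the spread, HET over WT for Pygb (1.02 by TPM, 0.994 by CPM) and Epm2a (0.997 and 0.955). Depth limits the precision of Stbd1, at 34 to 55 counts per library in HET and WT.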
